A study of Caenorhabditis elegans with 36 samples.

Results

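The 78 genes of Caenorhabditis elegans whose symbol begins with rpl- or rps- were followed through the small RNA libraries of young adults and of early embryos. Of these, 47 are rpl genes, named for proteins of the large ribosomal subunit, and 31 are rps genes, named for proteins of the small subunit. Membership goes by symbol alone, and all 78 had a row among the 31003 genes of the adult table and among the 46740 genes of the embryo tables. Cytoplasmic ribosomal proteins fold around ribosomal RNA to form the particle that translates every nuclear messenger RNA, and most of them are encoded by a single gene that is transcribed strongly in all cells. In this nematode, RNA-dependent RNA polymerases copy messenger RNAs into short antisense RNAs, which Argonaute proteins bind, and the Argonaute NRDE-3 carries such RNAs into the nuclei of somatic cells. The tables do not say on which strand reads were counted, so antisense small RNAs cannot be told apart from fragments of the abundant ribosomal protein messenger RNAs.

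The study asked whether nip1, nip2 and nip3, which are candidate genes in the passing of RNA silencing to offspring, alter small RNAs, by setting mutants against wild type (wt). Whole young adults gave 3 libraries of the double mutant nip2nip3, 3 of nip3_qe17, in which qe17 is an allele of nip3, and 2 of wt. Early embryos of mixed stage gave 2 libraries each of a mutant labelled nipnip2 and of wt, both from an immunoprecipitation (IP) of FLAG-tagged NRDE-3 with the antibody M2 and from the input. In input and in IP, the nipnip2 columns are headed nip1nip1 and nip1nip2, which names a nip1 and nip2 strain and not nip3. The embryo mutant thus differs from both adult mutants, whose labels name nip3. All animals were grown at 20C on the bacterium HB101, and all libraries were made by a method that does not depend on the 5′ end of the RNA. The labels give neither the nature of the mutations nor the number of animals per library, the tag is named for the embryo samples, and for 1 wt input the labels name whole animals and no tag. Separate cultures are not stated for the libraries of a group, and the p-values therefore reflect a spread between libraries that may be technical.

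Adult libraries held 6362077 to 10962202 counts, embryo inputs 1149734 to 2200941 and IP libraries 2957534 to 5957024. Ribosomal RNA genes took 0.864% to 4.68% of the adult counts, with the highest share in nip3_qe17 replicate 1. MicroRNAs took 25.8% to 26.0% of counts in nip2nip3 adults, 24.9% to 26.2% in nip3_qe17 adults and 21.9% to 22.4% in wt adults. Genes of the major sperm proteins, which mark sperm, took 0.0400% to 0.0497%, 0.0376% to 0.0421% and 0.0152% to 0.0190% of counts in the same order. All 30 sperm protein genes tested were higher in each adult mutant than in wt, with median log2 fold changes of 1.67 in nip2nip3 and 1.44 in nip3_qe17. The yolk genes vit-1 to vit-6 took 0.00178% to 0.00323% of counts in adults and had no counts in embryos, and the part of such differences in the results on ribosomal protein genes was not tested.

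In adults, the ribosomal protein genes took a smaller share of small RNA counts in both mutants than in wt. Their summed counts were 0.0925%, 0.105% and 0.0996% of the library in nip2nip3, 0.0969%, 0.114% and 0.110% in nip3_qe17, and 0.149% and 0.152% in wt. Every mutant library lay below both wt libraries, and the mean share was 0.660 times that of wt in nip2nip3 and 0.714 times in nip3_qe17. Both subunits moved alike: rpl genes took 0.0562% to 0.0665% in nip2nip3, 0.0617% to 0.0743% in nip3_qe17 and 0.0949% to 0.0960% in wt, and rps genes 0.0363% to 0.0388%, 0.0352% to 0.0401% and 0.0536% to 0.0557%. In embryos of the other mutant, nipnip2, the order was the reverse. The share was 0.139% and 0.133% in nipnip2 inputs and 0.0706% and 0.0875% in wt inputs, and within the IP it was 0.00680% and 0.00446% in nipnip2 and 0.00204% and 0.00183% in wt. The 2 nipnip2 libraries lay above the 2 wt libraries in input and in IP, with mean shares 1.72 and 2.91 times those of wt, but for the IP this order depends on the scale: in 1 fit of all embryo libraries on the scale of most genes, the members' median log2 fold change between the IPs was -0.21, against 0.24 for all genes.

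**Figure D1:**
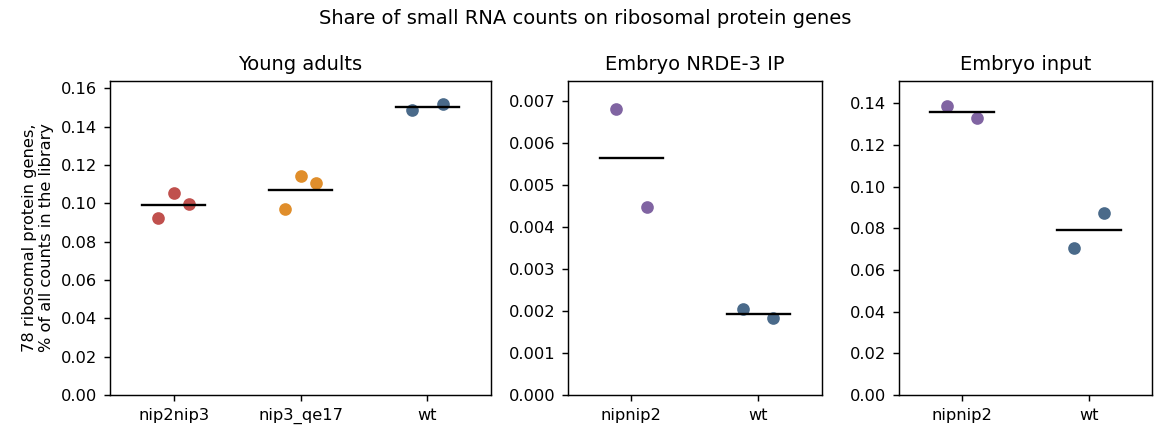
Share of all counts of a library that fell on the 78 ribosomal protein genes, in percent, with 1 point per library and a line at the group mean, in separate panels with separate axes for adults, embryo IP and embryo input. Adult mutants lay below wt, at 0.0925% to 0.114% against 0.149% and 0.152%, and by this share nipnip2 embryos lay above wt in IP and input, where the IP median turned to -0.21 on the scale of most genes.

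Shares of a library move with everything else in it, so genes were tested after scaling libraries to a common level of most genes (the trimmed mean of M-values, TMM), and values below are counts scaled to library size (CPM, the counts-per-million unit) on that scale. A gene was called at an adjusted p under 0.05 in edgeR's quasi-likelihood test. In nip2nip3 adults, 17 of the 77 members tested fell and none rose. The share that fell, 22.1%, was near that of all 16585 genes tested (21.3%), whereas 21.9% of all genes rose. The member left untested, rpl-25.1, had 2 to 8 counts in nip2nip3 and wt libraries and 0, 0 and 6 in nip3_qe17. The median log2 fold change of the 77 members was -0.25, against 0.05 for all genes, and 62 members had a negative value. All nip2nip3 libraries lay below both wt libraries for 37 members (48.1%) and above them for 6 (7.79%), where the background over all genes was 32.6% and 34.0%.

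In nip3_qe17 adults, 16 of 77 members fell and 3 rose, against 19.1% and 17.8% of all genes. The median log2 fold change was -0.24, against 0.01 for all genes. All nip3_qe17 libraries lay below both wt libraries for 34 members (44.2%; background 30.6%) and above them for 7 (9.09%; background 28.4%). Both comparisons use the same 2 wt libraries, so their values are not independent. Fewer members were called in each mutant when either wt library was left out, where wt rests on a single library. Over 12 alternatives, leaving out each library included, the members' median ran from -0.79 to -0.22 in nip2nip3 and from -0.71 to -0.17 in nip3_qe17.

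The number of calls depended on the scale. With library totals in place of TMM, 44 members fell in nip2nip3 (57.1%; all genes 35.9%) and 35 in nip3_qe17 (45.5%; all genes 30.5%), and none rose. With libraries scaled to their microRNA counts, 58 fell in nip2nip3 (75.3%; all genes 44.3%) and 55 in nip3_qe17 (71.4%; all genes 42.0%), and again none rose. Library totals moved the median of all genes to -0.27 in nip2nip3 and -0.26 in nip3_qe17, and that of the members to -0.56 and -0.51. The microRNA scale moved it to -0.49 and -0.46 for all genes and to -0.79 and -0.71 for the members. Under each of these scales the members' median therefore lay below that of all genes in both mutants.

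The largest change was that of rpl-11.2, at X:2241738-2242618 in ce11, which encodes one of 2 forms of RPL-11, a large-subunit protein that binds 5S ribosomal RNA together with RPL-5. It had 1.92, 1.45 and 2.25 CPM in nip2nip3 and 1.23, 1.52 and 1.47 CPM in nip3_qe17, against 11.5 and 14.4 CPM in wt. All 6 mutant libraries lay far below both wt libraries. The log2 fold change was -2.76 (SE 0.25, adjusted p = 1.37e-05) in nip2nip3 and -3.17 (SE 0.26, adjusted p = 6.22e-06) in nip3_qe17, and the alternatives gave -3.31 to -2.59 and -3.64 to -2.99. Estimated counts behind these values were 12.5, 9.5 and 21.83 in nip2nip3, 7, 16.5 and 16 in nip3_qe17, and 90 and 123 in wt.

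Its paralog rpl-11.1, at V:3585333-3586064, carried the most counts of any member in every adult library. It had 72.8, 85.7 and 84.3 CPM in nip2nip3, 102, 93.3 and 86.2 CPM in nip3_qe17, and 90.2 and 93.0 CPM in wt. The nip2nip3 libraries lay below wt and the nip3_qe17 libraries overlapped with it. The log2 fold change was -0.18 (SE 0.11, adjusted p = 0.209) in nip2nip3 and 0.03 (SE 0.11, adjusted p = 0.845) in nip3_qe17. In nip3_qe17 the sign for rpl-11.1 turned with the scale, to -0.25 by library totals and -0.45 on the microRNA scale. The estimated counts held fractions in 4 adult libraries for rpl-11.2 and in 6 for rpl-11.1. Levels of both genes may therefore depend on how shared reads were divided, which was not tested.

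Among the other large-subunit genes, rpl-34 and rpl-42 fell the most in nip2nip3, and rpl-42 and rpl-22 in nip3_qe17. The gene rpl-34 had 3.21, 4.21 and 4.09 CPM in nip2nip3, 3.86, 6.54 and 4.03 CPM in nip3_qe17, and 10.1 and 9.39 CPM in wt. The log2 fold change was -1.33 (SE 0.27, adjusted p = 0.00265) in nip2nip3 and -1.0 (SE 0.26, adjusted p = 0.0119) in nip3_qe17. Its annotated span overlaps that of a neighbouring protein-coding gene, C42C1.3, so reads of the shared stretch are of uncertain origin. The gene rpl-42 had 10.3, 13.1 and 16.0 CPM in nip2nip3, 15.1, 14 and 13.9 CPM in nip3_qe17, and 22.4 and 39.5 CPM in wt. Its log2 fold changes were -1.23 (SE 0.24) and -1.12 (SE 0.24), with the wt pair itself far apart.

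The genes rpl-22, rpl-20 and rpl-33 also fell in both mutants. The gene rpl-22 had 5.29, 4.79 and 5.01 CPM in nip2nip3, 5.61, 6.54 and 3.57 CPM in nip3_qe17, and 11.9 and 9.03 CPM in wt. The gene rpl-20 had 4.81, 7.41 and 5.83 CPM in nip2nip3, 5.44, 7.77 and 6.05 CPM in nip3_qe17, and 12 and 11.5 CPM in wt. The gene rpl-33 had 8.18, 7.12 and 6.75 CPM in nip2nip3, 5.61, 8.53 and 8.24 CPM in nip3_qe17, and 13.7 and 14.2 CPM in wt. For all 3 genes no mutant library reached the lower wt library, and log2 fold changes were -1.06, -0.96 and -0.93 in nip2nip3 and -1.0, -0.86 and -0.88 in nip3_qe17. The span of rpl-22 overlaps the protein-coding gene C27A2.12.

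Smaller falls met the threshold in both mutants for rpl-3, whose protein lies near the centre where peptide bonds are made, and for rpl-1, whose protein forms the stalk beside the exit site for transfer RNA. The gene rpl-3 had 19.6, 17.6 and 15.6 CPM in nip2nip3, 23.2, 20.1 and 19.3 CPM in nip3_qe17, and 31.5 and 25.3 CPM in wt. The gene rpl-1 had 10.7, 11.6 and 12.1 CPM in nip2nip3, 10.9, 10.5 and 10.1 CPM in nip3_qe17, and 16.5 and 16.8 CPM in wt. Groups did not overlap for either gene, and log2 fold changes were -0.70 and -0.53 in nip2nip3 and -0.45 and -0.67 in nip3_qe17. The genes rpl-31, rpl-10, rpl-5 and rpl-6 met the threshold in nip2nip3, with log2 fold changes of -0.53, -0.46, -0.44 and -0.37, and missed it in nip3_qe17, with -0.29, -0.26, -0.23 and -0.28. RPL-10 is among the last proteins to join the large subunit, and RPL-31 lies near the exit of the peptide tunnel. The genes rpl-24.1 and rpl-23 met it in nip3_qe17, at -0.73 and -0.49, and missed it in nip2nip3, at -0.62 and -0.38. None of these 6 genes differed between the 2 mutants by the threshold.

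Of the 31 small-subunit genes, 5 fell and none rose in nip2nip3, and 6 fell and 1 rose in nip3_qe17. The falls were 16.1% and 19.4% of these genes, against 21.3% and 19.1% of all genes. The largest fall was that of rps-17, which had 4.33, 3.78 and 5.83 CPM in nip2nip3, 3.16, 4.83 and 5.22 CPM in nip3_qe17, and 11 and 9.03 CPM in wt. Every mutant library lay below wt, with log2 fold changes of -1.09 (SE 0.26, adjusted p = 0.00769) in nip2nip3 and -1.15 (SE 0.26, adjusted p = 0.00596) in nip3_qe17. The gene rps-14, whose protein lies on the platform of the small subunit, had 11.9, 19.3 and 16.1 CPM in nip2nip3, 14.7, 15.7 and 14.9 CPM in nip3_qe17, and 23.6 and 29.0 CPM in wt. The gene rps-25, whose protein is required by several viral internal ribosome entry sites in other organisms, had 7.21, 8.28 and 7.67 CPM in nip2nip3, 6.66, 7.87 and 7.15 CPM in nip3_qe17, and 13.8 and 12.3 CPM in wt. Groups did not overlap for either gene, with log2 fold changes of -0.73 and -0.76 in nip2nip3 and -0.79 and -0.85 in nip3_qe17.

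The remaining calls among rps genes were rps-28, at -0.78 in nip2nip3 and -0.77 in nip3_qe17, and rps-21, at -0.60 and -0.74. The gene rps-4 met the threshold in nip3_qe17 at -0.42 and missed it in nip2nip3 at -0.31, and its span overlaps a small nucleolar RNA (snoRNA) gene and a protein-coding gene. For rps-28, nip2nip3 libraries had 10.4, 11.5 and 10.7 CPM, nip3_qe17 libraries 6.84, 11.5 and 13.6 CPM, and wt libraries 18.7 and 18.5 CPM. The wt pair was close together and above all mutant libraries, among which nip3_qe17 replicate 1 was the lowest.

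The genes rpl-38, rpl-35 and rps-0 rose in nip3_qe17 adults. The gene rpl-38 had 11.2, 13.4 and 13.8 CPM in nip2nip3, 20.3, 24.3 and 23 CPM in nip3_qe17, and 15.5 and 11.9 CPM in wt. All nip3_qe17 libraries lay above all others, while nip2nip3 and wt overlapped. In mice, loss of RPL38 alters the translation of particular Hox messenger RNAs. The log2 fold change of rpl-38 against wt was 0.73 in nip3_qe17 (SE 0.17, adjusted p = 0.00626) and -0.09 in nip2nip3 (SE 0.17, adjusted p = 0.701).

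Set directly against each other, nip2nip3 and nip3_qe17 differed in 1 of 77 members, rpl-38, which was lower in nip2nip3, as were 1.47% of all genes. Its log2 fold change in nip2nip3 over nip3_qe17 was -0.82 (SE 0.15, adjusted p = 0.0107), and 13 alternatives gave -0.88 to -0.73, all past the threshold. Against wt, the rise of rpl-38 in nip3_qe17 missed the threshold without wt replicate 3 (0.55, adjusted p = 0.0674), by library totals (0.46, adjusted p = 0.0711) and on the microRNA scale (0.26, adjusted p = 0.256). For rpl-11.2 the direct log2 fold change was 0.41 (SE 0.29, adjusted p = 0.487). The median over members was -0.06, against 0.02 for all genes.

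The gene rpl-35 had 6.57, 8.57 and 8.07 CPM in nip2nip3, 10.3, 8.81 and 12.5 CPM in nip3_qe17, and 7.18 and 5.28 CPM in wt. The gene rps-0 had 18.1, 27.2 and 26.0 CPM in nip2nip3, 28.1, 25 and 25.2 CPM in nip3_qe17, and 14.5 and 20.7 CPM in wt. In both genes nip3_qe17 lay above wt and nip2nip3 overlapped with wt, with log2 fold changes in nip3_qe17 of 0.76 (adjusted p = 0.0249) and 0.56 (adjusted p = 0.0474). By library totals neither gene met the threshold, since no member did so upward on that scale.

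**Figure D2:**
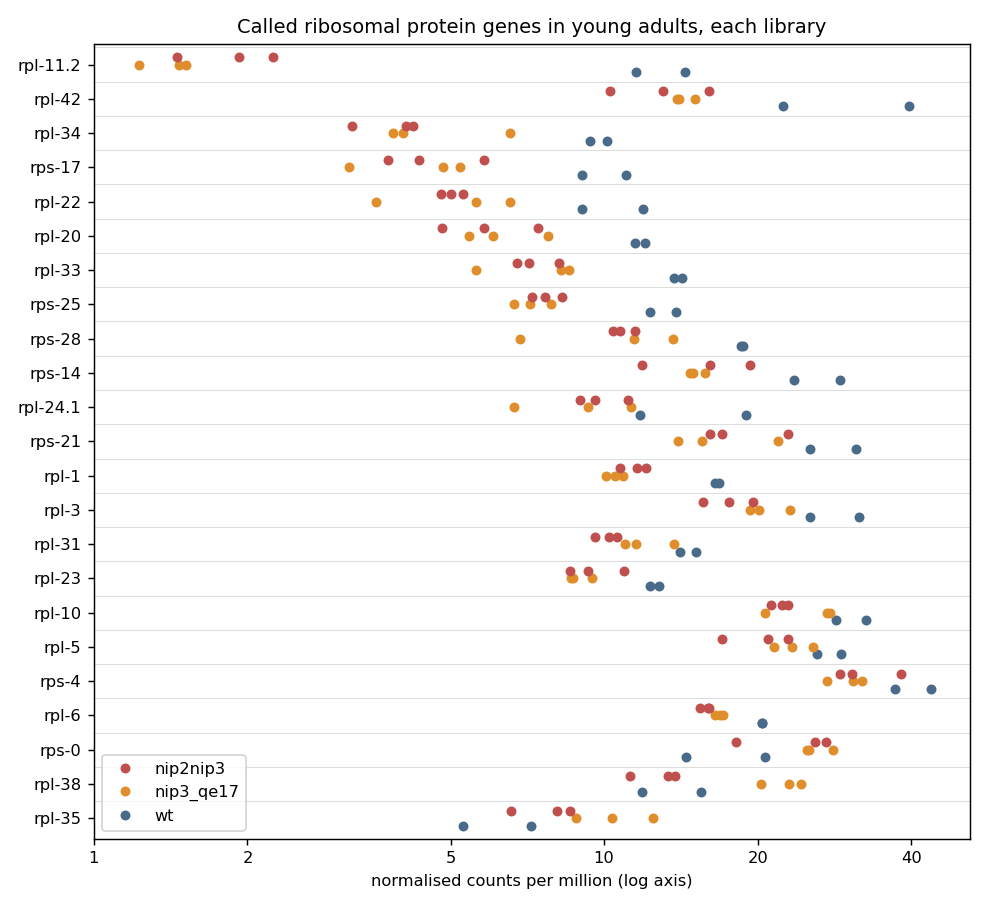
Level in CPM of the 23 ribosomal protein genes called in at least 1 adult mutant, on a log axis, with 1 point per library and the groups nip2nip3, nip3_qe17 and wt from top to bottom within each gene. For rpl-11.2 the mutants lay at 1.23 to 2.25 CPM and wt at 11.5 and 14.4 CPM, and for rpl-38 nip3_qe17 stood to the right of both other groups.

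Among members that missed the threshold, those with the largest values in nip2nip3 were rpl-36.A, at -0.88 (adjusted p = 0.102), and rps-30, at 0.80 (adjusted p = 0.142). In nip3_qe17 these were rps-23, at -0.64 (adjusted p = 0.138), and rps-27, at 0.76 (adjusted p = 0.0808). The gene rps-30 had 2.24, 2.76 and 2.35 CPM in nip2nip3 and 0.769 and 1.99 CPM in wt, so that its 2 wt libraries differed by more than any mutant pair.

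Besides RPL-11, symbols differing in the last number mark 3 further pairs of genes for 1 protein family. In rpl-24.1, which encodes RPL-24, nip2nip3 libraries had 8.98, 9.59 and 11.1 CPM, nip3_qe17 libraries 6.66, 9.29 and 11.3 CPM, and wt libraries 19 and 11.7 CPM. In its relative rpl-24.2, nip2nip3 libraries had 16.5, 19.9 and 19.8 CPM, nip3_qe17 libraries 20.5, 20.9 and 20.1 CPM, and wt libraries 19.5 and 20.3 CPM. The first lay below wt in every mutant library and fell past the threshold in nip3_qe17, whereas rpl-24.2 had log2 fold changes of -0.08 in nip2nip3 and 0.04 in nip3_qe17.

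The gene rpl-25.2 had 9.78, 11.6 and 9.51 CPM in nip2nip3, 15.1, 11 and 8.98 CPM in nip3_qe17, and 16.1 and 13.6 CPM in wt, with log2 fold changes of -0.53 and -0.37 that missed the threshold. Its partner rpl-25.1 was almost without counts. The pair rpl-41.2 and rpl-41.1, at I:4790292-4790642 and I:4789190-4789592, encodes the shortest protein of the large subunit. The gene rpl-41.2 had 38.6 to 43.8 CPM in nip2nip3, 41.2 to 50.3 CPM in nip3_qe17 and 40.4 and 45.1 CPM in wt, and rpl-41.1 had 2.56 to 2.76, 1.75 to 2.65, and 1.41 and 2.56 CPM in the same groups. By these estimated counts the 2 neighbouring genes differed widely in level, and neither met the threshold. Their log2 fold changes were -0.03 and 0.43 in nip2nip3 and 0.10 and 0.25 in nip3_qe17. Both are among the 4 members with fractions of counts in every adult library, so their levels may depend on how shared reads were divided, which was not tested. The symbols rpl-7 and rpl-7A, and rpl-36 and rpl-36.A, also differ by a letter but name unrelated proteins, and none of these 4 genes met the threshold in an adult comparison.

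Of the 78 members, 61 could be placed on ce11 by symbol, 78.2% of the set, which is too few to test the set for length or position. Of those placed, 19 overlap another annotated gene and 11 of these overlap a snoRNA gene, as many snoRNAs lie in introns of ribosomal protein genes. Only 1 of the 13 placed members called in nip2nip3 overlaps a snoRNA gene, rpl-6, and 1 of the 14 called in nip3_qe17 does, rps-4. The deposited adult values held fractions of counts in at least 1 library for 46 members, and 10 of the 17 members called in nip2nip3 had whole counts in every library. No member had the same rounded counts as another gene.

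Levels between genes were compared per kilobase of annotated span, introns included, for the 61 placed members. In wt adults they ran from 3.79 to 125 CPM per kilobase, a 33-fold range with a median of 17.5. The 8 highest, from the top, were rpl-11.1 at 125 (SD 2.74), rpl-41.2 at 122 (SD 9.56), rps-21 at 62.2, rps-28 at 60.7, rps-20 at 47.0, rps-14 at 43.9, rpl-28 at 42.6 and rps-4 at 41 CPM per kilobase (n = 2). The first 2 do not differ beyond their spread, nor do rps-21 and rps-28, nor the 4 that follow. The span of rps-20 holds the microRNA gene mir-354. The lowest were rps-13 at 5.28, rpl-41.1 at 4.93 and rps-27 at 3.79 CPM per kilobase.

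In wt embryo inputs the members ran from 0.836 to 87.6 CPM per kilobase, with a median of 9.49. The highest were rps-14 at 87.6, rpl-11.2 at 77.0, rps-21 at 55.9, rps-4 at 49.6, rpl-11.1 at 45.8, rps-28 at 35.3, rpl-28 at 34.6 and rpl-41.2 at 34.4 CPM per kilobase (n = 2). With SDs of 16.6 for rps-14 and 51.4 for rpl-11.2, no neighbours in this order differ beyond their spread. The lowest were rps-9 at 4.31, rpl-14 at 3.23 and rps-27 at 0.836 CPM per kilobase. Of the 8 highest members, 7 were the same genes in both stages. Across all 78 members, mean CPM in wt adults and wt embryo inputs had a Spearman rho of 0.63, a description over genes that share libraries, length and base composition within each stage. The tables of the 2 stages were scaled apart, and on these scales rpl-11.2 was 5.22 times as high in embryos as in adults, the highest ratio of the 61, while rpl-11.1 was 0.366 times as high. The ratio of rpl-11.2 rested on 1 library: without wt input library 2 it was 2.76, second to rpl-39 at 3.52, and without wt input library 1 it was 7.69.

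**Figure D3:**
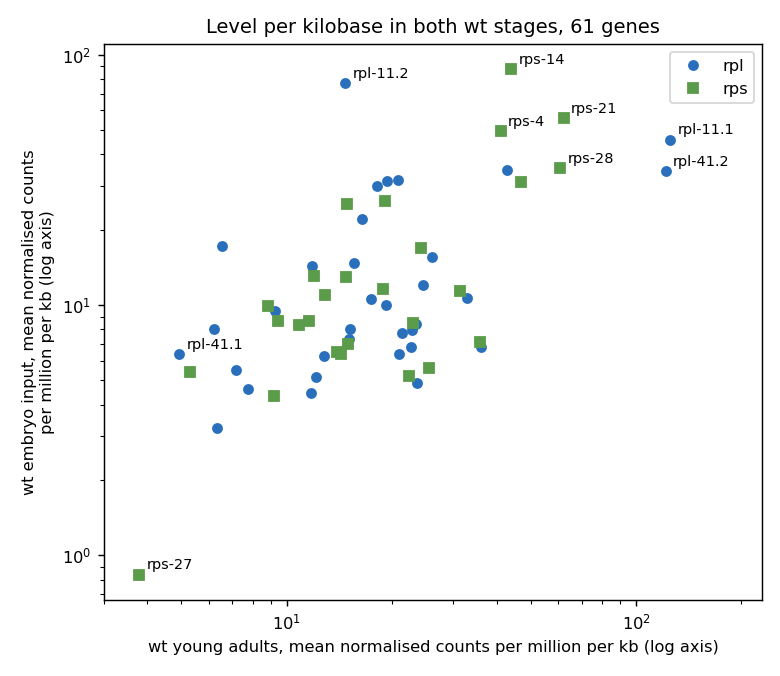
Mean normalised level in CPM per kilobase of gene span in wt embryo input (vertical, log axis, n = 2) against wt young adults (horizontal, log axis, n = 2), with 1 point for each of 61 ribosomal protein genes. The gene rpl-11.1 stood at 125 in adults and 45.8 in embryos, rpl-11.2 at 77.0 in embryos, and rps-27 was the lowest in both.

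In embryo inputs no member met the threshold in either direction, of 65 tested. Among all 8506 genes, 5.10% were lower in nipnip2 and 1.28% were higher. By unadjusted p under 0.05 there were 3 members (4.62%), against 18.5% of all genes, and DESeq2 called none. The median log2 fold change was 0.16, against 0 for all genes, and 43 of 65 members had a positive value. Both nipnip2 inputs lay above both wt inputs for 20 members (30.8%; background 22.5%) and below them for 3 (4.62%; background 24.6%).

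The scale again set the count. By library totals 19 members were higher in nipnip2 (29.2%; all genes 17.3%), and on the microRNA scale 60 were (92.3%; all genes 81.8%). Those scales moved the median of all genes to 0.58 and 1.53, and that of the members to 0.75 and 1.69. MicroRNAs took 0.587% and 0.767% of counts in nipnip2 inputs and 1.21% and 1.36% in wt inputs, and this difference cannot be told apart from a change of all other small RNAs.

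The largest values in input were those of rps-16, which had 23 and 14 counts in nipnip2 and 4 and 9 in wt, and of rpl-42, which had 11 and 0 counts in nipnip2 and 13 and 9 in wt. Their log2 fold changes were 1.43 (SE 0.44, adjusted p = 0.099) and -1.08 (SE 0.73, adjusted p = 0.541). The gene rpl-11.2 had 92.2 and 36.6 CPM in nipnip2 and 35.8 and 99.8 CPM in wt. Each group thus held 1 high and 1 low library, and the log2 fold change was -0.04 (SE 0.48, adjusted p = 0.990). The same 2 libraries had the higher share of sperm protein counts in their groups, at 0.0223% against 0.00957% in nipnip2 and 0.0112% against 0.00451% in wt, and the part of this in rpl-11.2 was not tested. The paralog rpl-11.1 was steady, at 37.9 and 39.6 CPM in nipnip2 and 32.2 and 34.8 CPM in wt.

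**Figure D4:**
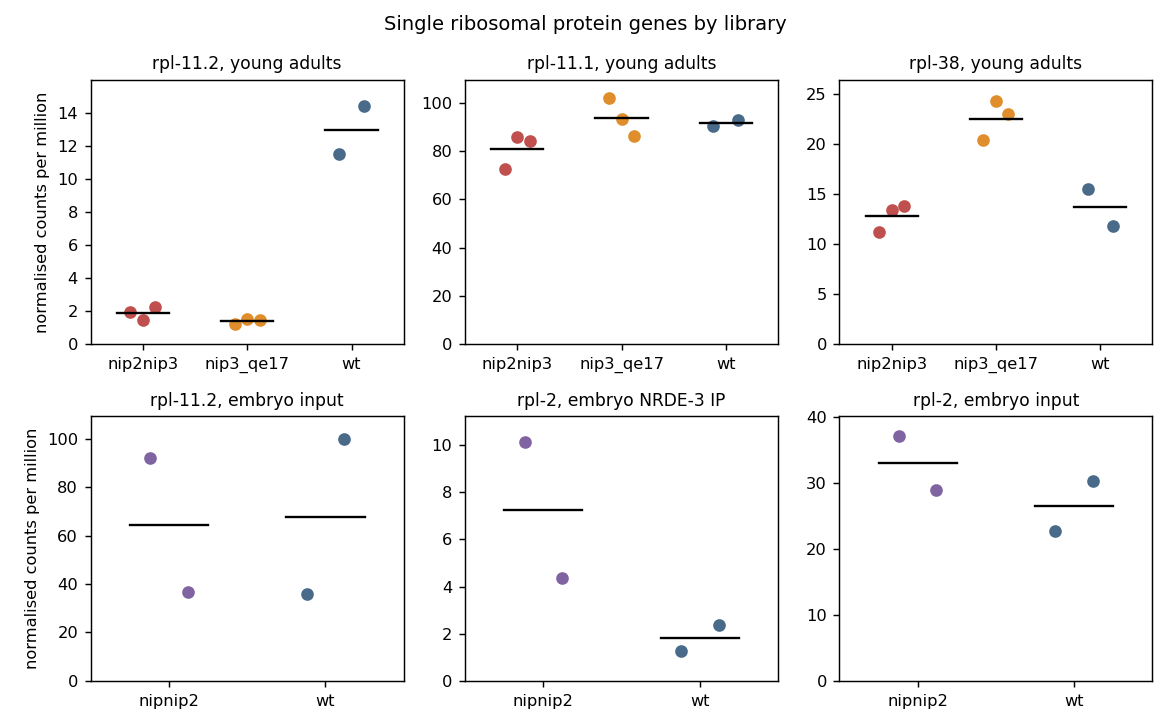
Level in CPM of single genes, with 1 point per library and a line at the group mean, on axes that start at 0: rpl-11.2, rpl-11.1 and rpl-38 in adults, rpl-11.2 in embryo input, and rpl-2 in embryo IP and input. The gene rpl-11.2 was low in both adult mutants and split within each embryo group, and rpl-2 in the IP was higher in both nipnip2 libraries than in wt.

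**Figure D5:**
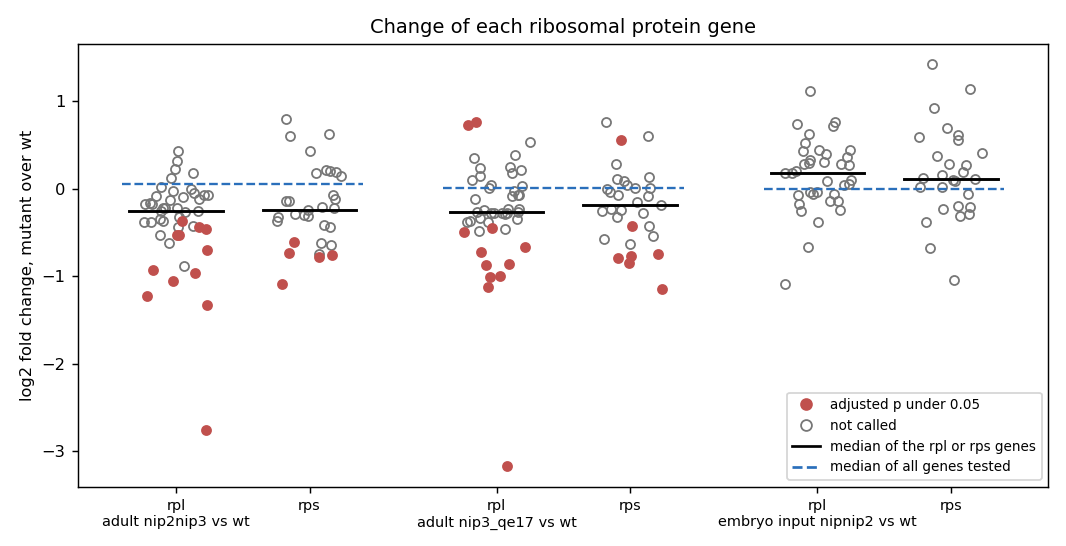
Log2 fold change, mutant over wt on the TMM scale, of each rpl and rps gene tested in nip2nip3 adults, nip3_qe17 adults and nipnip2 embryo input, with filled points for adjusted p under 0.05, solid lines at the median of each class and dashed lines at the median of all genes. Members lay mostly below the dashed line in adults, with medians of -0.25 and -0.24, and mostly above it in embryo input, with a median of 0.16.

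Few small RNAs of ribosomal protein genes were recovered with NRDE-3. The 78 genes together had 236 and 132 counts in the nipnip2 IP, 92 and 109 in the wt IP, and 1456 to 2533 in the inputs. As shares of the library, the mean was 24.1 times as high in input as in IP for nipnip2 and 40.9 times for wt. By library totals 92.9% of all genes were called lower in IP in nipnip2 and 95.3% in wt, so this is not particular to ribosomal protein genes. In the nipnip2 IP libraries 18 and 29 members had no count, and in the wt IP libraries 34 and 23 had none. Of the 78, only rpl-2 passed the filter on low counts for the comparison of the 2 IPs.

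The gene rpl-2 encodes RPL-2, a core protein of the large subunit beside the centre where peptide bonds form. It had 70 and 24 counts in the nipnip2 IP and 3 and 7 in the wt IP. Both nipnip2 libraries lay above both wt libraries, and the gene made up 29.7% and 18.2% of the members' counts in the nipnip2 IP against 3.26% and 6.42% in the wt IP. On the TMM scale it had 10.1 and 4.35 CPM in nipnip2 and 1.25 and 2.37 CPM in wt, a log2 fold change of 1.97 (SE 0.51, adjusted p = 0.000528), where 10.1% of 2620 genes rose. Without nipnip2 IP replicate 1 the value was 1.26 and missed the threshold (adjusted p = 0.060). Since rpl-2 passed the filter through its counts in nipnip2, a rise was favoured in advance and its p-value is not independent support. The gene stands for itself and not for the set.

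In input rpl-2 had 86 and 38 counts in nipnip2 and 38 and 54 in wt, which is 37.0 and 29.0 CPM against 22.7 and 30.3 CPM, and the log2 fold change of 0.33 missed the threshold (adjusted p = 0.634). The effect of nipnip2 in the IP less that in the input was 1.78 (SE 0.61) for rpl-2, with an adjusted p of 0.231. In adults rpl-2 had 15.2, 17.7 and 14.5 CPM in nip2nip3, 14, 16.6 and 15.8 CPM in nip3_qe17, and 16.8 and 20.1 CPM in wt, and was not called. In the embryo tables its row stood 3 rows from that of B0250.7, which had 92 and 38 counts in the nipnip2 IP and 12 and 13 in the wt IP, with a log2 fold change of 1.12 (SE 0.41, adjusted p = 0.0229), and 2 rows from that of calf-1, which had 7 and 5 counts in the nipnip2 IP and 7 and 9 in the wt IP. Further rows looked at were those of B0250.8 and dhcr-7. B0250.8 had 147 and 127 counts in the nipnip2 IP and 42 and 48 in the wt IP. Its log2 fold change of 0.39 missed the threshold (edgeR, SE 0.33, adjusted p = 0.393). The gene dhcr-7 had 1 and 3 counts in the nipnip2 IP and 0 and 1 in the wt IP. Row order is not a position on the genome, where rpl-2 could not be placed by symbol. These neighbours were looked at after the value of rpl-2 was seen. By library totals, the members without rpl-2 took 0.00478% and 0.00365% of counts in the nipnip2 IP and 0.00197% and 0.00171% in the wt IP. As given above for the members' shares in the IP, this order depends on the scale.

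Set against input within a strain, the call rested on the scale. By library totals all 70 members tested were lower in IP than in input in nipnip2 and likewise in wt, as were 92.9% and 95.3% of all genes. Apart from rpl-2, these members passed the low-count filter through their input counts alone, which favours calls of lower in IP on either scale. On the TMM scale, whose factors for these libraries ran from 0.111 to 5.99, 13 members were lower and 1 higher in the nipnip2 IP (all genes 14.7% and 15.8%), and 4 were lower and 3 higher in the wt IP (all genes 12.8% and 11.7%). The median over members was -1.24 in nipnip2 and -0.60 in wt, against -0.27 and -0.59 for all genes. The difference between the 2 strains met the threshold for no member by edgeR or DESeq2, against 0.876% of all genes, and by unadjusted p under 0.05 for 9 of 70 (12.9%), against 10.3% of all genes.

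In nipnip2 the member higher in IP was rpl-2, with a log2 fold change of 2.34 (SE 0.32, adjusted p = 5.72e-07) on the TMM scale, which turned to -1.51 by library totals. The 13 lower members were rps-22, rps-28, rpl-22, rps-16, rps-2, rpl-23, rps-14, rpl-7A, rps-11, rpl-20, rps-21, rpl-16 and rps-4. The gene rps-22 had no count in the 2 IP libraries and 59 and 41 in the inputs. With a floor of 3 counts over the 2 IP libraries, that is at least 72.0-fold lower by library totals. On that scale the members' summed share was itself 24.1 times as high in input as in IP. The gene rps-14 had 4 and 2 counts in IP and 134 and 94 in input, with a TMM log2 fold change of -2.52 (SE 0.48, adjusted p = 8.98e-05). The other 11 had log2 fold changes from -1.12 for rps-4 down to the values of rps-28, rpl-22 and rps-16, which had no IP count either. Of the members not called, rpl-26 had 0 and 0 counts in IP and 16 and 11 in input, and rpl-18 had 5 and 3 in IP and 19 and 11 in input. Without nipnip2 IP replicate 1 there were 4 calls, without IP replicate 2 there were 8, and without input replicate 2 there were 9.

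In wt the lower members were rpl-23, rpl-11.2, rpl-3 and rps-14, and the higher ones were rps-29, rpl-27 and rpl-41.2. The gene rpl-23 had 0 and 0 counts in IP and 28 and 38 in input, at least 54.0-fold lower by library totals with the same floor. The members' summed share in wt was itself 40.9 times as high in input as in IP. The gene rpl-11.2 had 1 and 1 counts in IP and 60 and 178 in input. Counts of the higher members were as few, with 6 and 4 in IP against 10 and 12 in input for rps-29, 4 and 2 against 7 and 6 for rpl-27, and 6 and 5 against 16 and 26 for rpl-41.2, and all 3 turned lower by library totals. Without wt IP replicate 1 no member was called, and without replicate 2 there were 2. The floors cover counting error only.

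Other genes of translation in adults were described for the same comparisons. Of 69 genes for mitochondrial ribosomal proteins, which translate the few messages of the mitochondrial genome, 16 fell and none rose in nip2nip3, with a median of -0.23, and 5 fell and 1 rose in nip3_qe17, with a median of -0.09. The falls were 23.2% and 7.25% of the list, against 21.3% and 19.1% of all genes, whose medians were 0.05 and 0.01. The largest falls in nip2nip3 were those of mrpl-36, at -1.41, and mrps-23, at -1.19. In nip3_qe17 these were mrpl-36, at -1.39, and mrps-18B, at -1.01, and mrps-26 rose by 0.54. Of 32 aminoacyl-tRNA synthetase genes, 7 fell and none rose in nip2nip3 and 6 fell and 1 rose in nip3_qe17. Those falls, 21.9% and 18.8% of the list, were near the shares over all genes, and the medians were -0.18 and -0.03. The largest were those of rars-2, at -0.75, and fars-2, at -0.70, in nip2nip3, and of rars-2, at -0.63, and pars-2, at -0.62, in nip3_qe17, where yars-1 rose by 0.26.

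Initiation factors moved both ways, as did all genes. Of 32 tested, 5 fell and 3 rose in nip2nip3 (15.6% and 9.38%, against 21.3% and 21.9% of all genes), and 4 fell and 5 rose in nip3_qe17 (12.5% and 15.6%, against 19.1% and 17.8%). The medians were -0.14 and 0.07. The gene eif-3.I, for a subunit of initiation factor 3, rose by 2.04 in nip2nip3 and 2.15 in nip3_qe17, and iff-2 rose by 1.02 and 0.76. The gene ife-5, for a protein that binds the messenger RNA cap, fell by 1.15 and 0.92, and eif-3.F fell by 0.58 in nip2nip3 and eif-3.H by 0.57 in nip3_qe17. Of 8 elongation and termination factors, eef-1A.2 alone met the threshold in each mutant, rising by 0.56 and 0.50. Of 21 ribosome assembly genes, 4 fell and 1 rose in nip2nip3, and 3 fell and 4 rose in nip3_qe17, with medians of -0.17 and 0.03. The falls, 19% and 14.3% of the list, lay below the shares over all genes, and the rises were 4.76% and 19%. The largest falls were those of ncl-1, which restrains nucleolar size, at -0.68 in nip2nip3 and -0.57 in nip3_qe17, and of nol-9, at -0.59 and -0.50. The gene rrp-1 rose by 0.37 and 0.68, and nol-58 rose by 0.35 in nip3_qe17. Of the 5 stalk and ubiquitin-fusion genes of the ribosome (rla-0, rla-1, rla-2, ubl-1 and ubq-2), none met the threshold in nip2nip3, and ubq-2 fell by 0.73 in nip3_qe17.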

How the data were processed

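Small RNA counts per gene were used for 8 adult, 4 embryo input and 4 embryo IP libraries, grouped by the labels. Per the submitters' processing notes, reads were trimmed with cutadapt, aligned with STAR to ce11 and counted with featureCounts, and DESeq2 was used. Versions, counting options and strand are not given in the sources used here. The authors deposited whole counts for embryos and estimated counts, with fractions, for adults, which were rounded before testing. Embryo columns are numbered otherwise than the sample titles, so they were used as members of their group. Of the mutant columns in input and in IP, 1 reads nip1nip1 and the other nip1nip2. The table of RNA-seq libraries and those of repeat families were not used here.

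Tests were edgeR 4.0.16 quasi-likelihood F-tests in R 4.3.3 (filterByExpr, TMM, Benjamini-Hochberg over all genes tested, called under 0.05), after checks on simulated counts. Adult libraries were fitted together, input and IP apart for the mutant, and together for IP against input. DESeq2 1.42.0, RLE scaling, library totals, microRNA scaling, no filter, fits of the groups compared or of all embryo libraries, a replicate block and leaving out each library were alternatives. Files were read with data.table (version 1.17.8). Symbols came from WormBase identifiers, and coordinates from a RefSeq annotation of the assembly that ce11 names.

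The set of genes and the lists were proposed with earlier results of these data known, and symbols then fixed their members. The genes named are every member called in a comparison, the largest uncalled change per direction, the 8 highest and 3 lowest per kilobase, gene pairs, and for other lists, in adult mutants against wt, the 2 largest calls per direction. Depth limits IP values to a few counts per gene.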

Additional observations from a re-analysis of the deposited data

Results flagged for a closer look

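The log2 fold change of rpl-38 between the adult mutants, nip2nip3 over nip3_qe17, was -0.82, and the direct test of that difference passed the threshold (edgeR, adjusted p = 0.0107). All 3 nip2nip3 libraries lay below all 3 nip3_qe17 libraries. No group held the 4 libraries needed to look for a library far from its group.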

How the results depend on the processing

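Calls by library totals numbered 44 for nip2nip3 and 35 for nip3_qe17 in adults, 19 in embryo input, 70 for IP against input in wt and 70 in nipnip2, and 4 for the difference between strains. MicroRNA scaling gave 58, 55 and 60 in the first 3 of these. Without the low-count filter there was 1 call in input, 4 between the IPs, 12 for IP against input in wt and 22 in nipnip2. One fit of all embryo libraries gave 2 calls between the IPs, and DESeq2 gave 4 for IP against input in wt and 8 in nipnip2. Leaving out 1 library gave 6 to 19 calls in nip2nip3, 9 to 16 in nip3_qe17, 0 to 2 between the IPs, 0 to 7 for IP against input in wt, 4 to 14 in nipnip2, and 0 to 1 for the difference between strains. Shares over all genes are given above for some of these settings only, so these counts are not read as particular to the members. The causes were not tested.

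Signs turned with the scale for 4 called values, those of rpl-27, rpl-41.2 and rps-29 for IP against input in wt and of rpl-2 in nipnip2, and the other values given here missed the threshold on the TMM scale. By library totals and on the microRNA scale, nip3_qe17 values were -0.25 and -0.45 for rpl-11.1, -0.23 and -0.43 for rpl-24.2, -0.01 and -0.21 for rpl-41.1, and -0.18 and -0.38 for rpl-41.2, and the microRNA scale gave -0.10 for rpl-41.1 in nip2nip3. In embryo input rpl-11.2 had 0.56 and 1.54 and rpl-42 had 0.45 on the microRNA scale. By library totals, IP against input gave -4.45, -2.33, -3.18, -2.87 and -2.38 for rpl-2, rpl-27, rpl-41.2, rps-25 and rps-29 in wt, and -2.99 and -1.51 for rpl-18 and rpl-2 in nipnip2. With 1 library left out, values ran from -0.10 to 0.05 for rpl-41.2 and -0.12 to 0 for rpl-24.2 in nip2nip3, -0.12 to 0.74 for rpl-41.1 and -0.03 to 0.09 for rpl-11.1 in nip3_qe17, -0.88 to 0.88 for rpl-11.2 in input, and -0.07 to 0.87 for rpl-2 in the wt IP.

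With the replicate number as a block, 19 members were called in nip2nip3, 19 in nip3_qe17 and 1 between these mutants, and for IP against input 6 in wt, 11 in nipnip2 and 0 for the difference. Shares over all genes are not given for the block, so these counts are not read as particular to the members. Same-numbered adult libraries deviated together weakly, with correlations of -0.005 to 0.212, against -0.212 to 0.109 between adult libraries of different numbers. Same-numbered IP and input columns gave -0.052 in wt and 0.129 in nipnip2. The numbers were not taken as pairs in the main tests, and the block counts show the result with them. No paired analysis was possible for nipnip2 against wt embryos because the column numbers are not those of the samples.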
